A study of Mus musculus with 6 samples.

Results

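TNF and NF-kappaB response genes were examined in whole mouse eyeballs, taken at postnatal day 1. The 10 genes were Tnf, Tnfaip3, Nfkbia, Nfkbiz, Nfkb1, Nfkb2, Relb, Birc3, Icam1 and Traf1, chosen by name with earlier results of these data known. Each gene was represented by its brightest probe set among those that name a single gene, that is, the set of array probes with the highest mean over the 6 arrays. This gave values for 9 of the 10 genes, among 12393 genes represented in the same way. Nfkb1 had no probe set naming it alone in the annotation used and was not analysed here. Individual eyeballs, 3 of Brg1 cKO pups and 3 of wild-type pups, were compared, all on a mixed strain background. Whether each eyeball came from a different pup was not stated. Brg1 cKO pups carried homozygous floxed alleles of Brg1 and the Le-Cre transgene, which is driven by a Pax6 enhancer and acts in the surface ectoderm of lens, cornea and eyelid. The whole eyeball also holds tissue outside this lineage. By the study's own DNA tests, deletion in the germline was seen occasionally with this cross, and a floxed band could remain in lens DNA. Smarca4 encodes Brg1, the catalytic ATPase of SWI/SNF complexes, which remodel chromatin. The controls were labelled wild type, and the study describes them as littermates. It also states that its controls carried the floxed alleles, without naming these arrays. The study saw no difference in phenotype between Le-Cre and wild-type mice. No group of arrays had Le-Cre alone, so effects of the transgene and of Brg1 loss on these values cannot be told apart.

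NF-kappaB is a family of dimeric transcription factors held in the cytoplasm by IkappaB proteins. Binding of TNF, interleukin 1 or microbial products to their receptors activates the IkappaB kinase, IkappaB is degraded, and the freed dimers enter the nucleus and induce cytokines, adhesion molecules and survival genes. Among the induced genes are inhibitors of the pathway itself, so that the response is self-limiting. A slower noncanonical branch, triggered by a few TNF family receptors, works through processing of the Nfkb2 product and its partner Relb.

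Values are log2 intensities, and median intensities of the arrays lay between 169.1 and 185.5 on the linear scale. The 25th percentile of all log2 values, 4.84, was taken to mark dim probe sets, whose differences are understated. Smarca4 overlapped between the genotypes in its brighter probe set, with 9.91 ± 0.17 in wild type and 10.09 ± 0.23 in Brg1 cKO (log2, SD, n = 3), and the dimmer one differed by -0.70 (SE 0.30, limma adjusted p = 0.598). Where these probe sets lie relative to the deleted exons was not analysed here, so that Smarca4 does not check the labels. The tissue was borne out by lens markers, with a summed intensity of 79580 to 87980 in wild-type and 20000 to 53020 in Brg1 cKO arrays, and by retina markers, with 13870 to 15050 and 9578 to 20090. Corneal and surface epithelium markers summed to 11250 to 13330 in wild-type and 3893 to 8527 in Brg1 cKO arrays. Of these 8 markers, 6 were lower without overlap, where 791 of all 12393 genes were. Krt14 was higher without overlap (log2 difference 0.87), and Krt5 overlapped (-0.02). Brg1 cKO replicate 2 stood farthest from the wild-type arrays, at 75.2 on the first principal component against 11.9 and 19.3 for the other Brg1 cKO arrays. Brg1 cKO replicate 1 was the array with low Xist, at 4.88 against 12.30 to 12.92 in the others. The p-values measure the spread between these eyeballs, and only 3 arrays a group limit the precision.

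Tnf, Nfkbiz, Relb, Birc3, Icam1 and Traf1 lay higher in every Brg1 cKO array than in every wild-type array, by 1.48-fold for Traf1 to 2.38-fold for Birc3. None of the 9 measured genes passed the test over all probe sets (limma, adjusted p under 0.05, from 0.236 for Birc3 to 0.962 for Tnfaip3), where 0.694% of all genes passed. Genes higher without overlap were 6 of 9, where 8.46% of all genes were higher without overlap. As the members were chosen with earlier results of these data known, their counts beside all genes are descriptions and not a test. The same 6 genes had an unadjusted limma p under 0.05, where 5.56% of all genes were higher at that level. At that level 0 of the 9 were lower, where 464 of all 12393 genes were. The count at an unadjusted p under 0.05 was 3 without wild-type replicate 1 and 3 without wild-type replicate 3, with Birc3, Icam1 and Relb in both. Template matching, the correlation with the genotypes that the study used for these arrays, joined with a fold over 1.5, called 2 of the 9 genes higher, Birc3 and Relb, where it called 2.53% of all genes higher. The median log2 difference of the 9 genes was 0.96, beside 0.02 over all genes, and it was 0.59 without Brg1 cKO replicate 2. In whole eyeballs, a change in the number of cells of a type and a change of RNA per cell cannot be told apart.

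**Figure D1:**
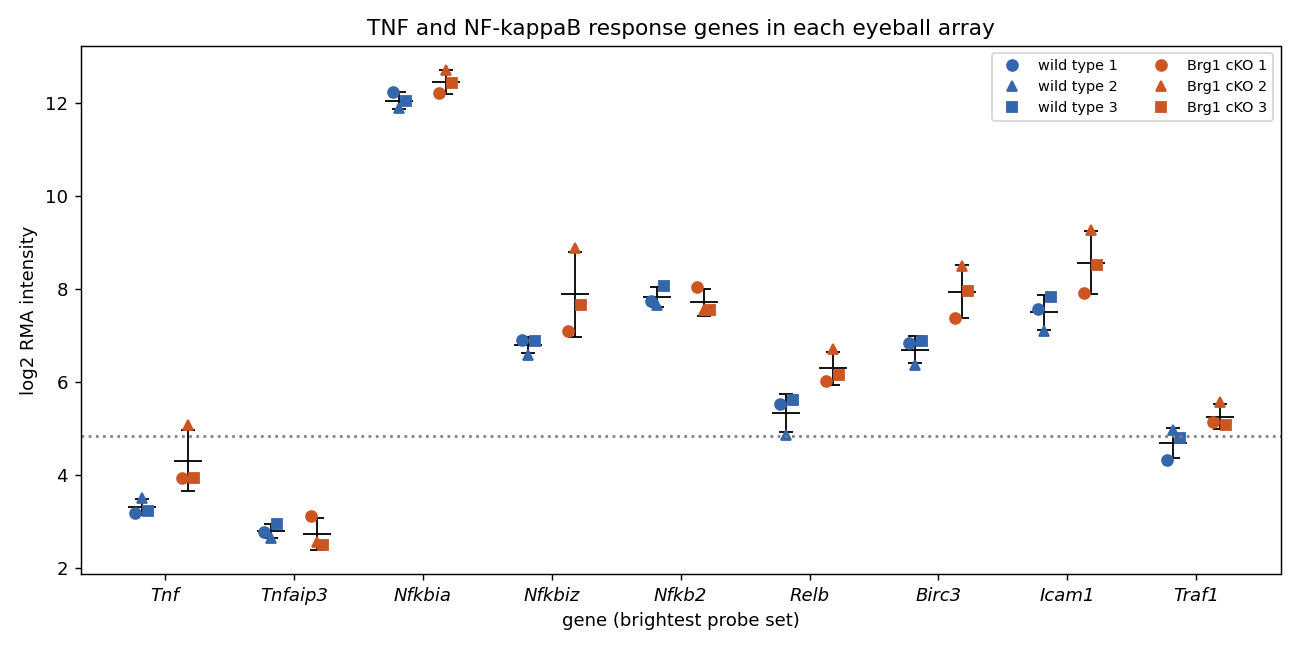
Log2 RMA intensity (vertical axis) of the 9 measured genes in each array, wild type in blue on the left and Brg1 cKO in orange on the right of each pair, with a bar for each mean and its SD (3 arrays) and a dotted line at 4.84, the 25th percentile of all values. The Brg1 cKO points lie above all wild-type points for Tnf, Nfkbiz, Relb, Birc3, Icam1 and Traf1, and Brg1 cKO replicate 2 (triangle) is the highest array for 7 of the 9 genes.

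NF-kappaB induces target genes by binding kappaB sites of 10 bases, made of a G-rich and a C-rich end around an A/T-rich centre. Promoter sequences around start sites, from 250 bases before to 50 after, were given by RefSeq (GRCm38.p6) for 7 of the measured genes and not for Nfkbiz and Relb. The kappaB consensus, taken as GGGRNWYYCC (R for A or G, W for A or T, Y for C or T, N for any base), was searched on both strands. It matched near a start site of Tnfaip3, Nfkbia and Nfkb2 and not in the windows of Tnf, Birc3, Icam1 and Traf1. Of all 32851 promoter windows, 4.51% held a match, and of measured genes with a window, 6.18% did. The stretches of 130 bases before the start site are shown for the 3 genes with a match and for Birc3 and Icam1, which lay higher in every Brg1 cKO array and had none, in the direction of transcription, with matches in capitals. They lie at chr10:19015411-19015540 (minus strand), chr12:55492648-55492777 (minus), chr19:46304607-46304736 (plus), chr9:7873171-7873300 (minus) and chr9:21015810-21015939 (plus), in the order printed.
Tnfaip3: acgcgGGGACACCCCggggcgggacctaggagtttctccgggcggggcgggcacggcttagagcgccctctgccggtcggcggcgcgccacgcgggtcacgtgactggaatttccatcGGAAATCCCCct
Nfkbia: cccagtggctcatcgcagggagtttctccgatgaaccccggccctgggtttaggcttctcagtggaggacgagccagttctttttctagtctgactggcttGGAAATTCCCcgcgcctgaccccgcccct
Nfkb2: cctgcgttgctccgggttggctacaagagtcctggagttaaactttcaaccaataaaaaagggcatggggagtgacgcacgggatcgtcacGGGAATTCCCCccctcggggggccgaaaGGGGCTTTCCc
Birc3: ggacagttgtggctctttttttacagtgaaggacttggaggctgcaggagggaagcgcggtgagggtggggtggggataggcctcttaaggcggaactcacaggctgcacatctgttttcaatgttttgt
Icam1: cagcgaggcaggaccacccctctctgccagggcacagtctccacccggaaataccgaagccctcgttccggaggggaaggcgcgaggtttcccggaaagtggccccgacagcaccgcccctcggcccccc

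Counted from the start site, the Tnfaip3 matches began at -125 and, on the opposite strand, at -12, and the Nfkbia match began at -29, also on the opposite strand. In Nfkb2, matches that overlap each other began at -39 and -38, and another began at -11. The other Nfkb2 start sites, at positions 46305695 and 46305930 of chromosome 19, held 2 and 1 matches, but their windows overlap, and the match at 11 from the first is the one at -225 from the second. The other Tnfaip3 start site, at 19011963 of chromosome 10, held none. Groups overlapped in the brightest probe set of the 3 genes with a match and did not overlap in the 4 genes without one. However, the dimmer Nfkb2 probe set was higher without overlap (0.69), and Tnfaip3 lay below 4.84 in all 6 arrays. These few genes therefore do not show how a match and a difference are related. A match describes these letters and is not a bound site. Sites beyond the window, and sites within it that depart from the consensus, were not searched. Over all measured genes with a window, 11% of the 611 with a match were higher without overlap and 8.18% of the 9276 without a match, with median log2 differences of 0.07 and 0.02.

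Tnf encodes the ligand of the pathway, a cytokine made mainly by activated macrophages. In order of replicate number, as for all genes that follow, it read 3.18, 3.51 and 3.24 in the wild-type arrays, against 3.93, 5.07 and 3.93 in the Brg1 cKO arrays. The groups did not overlap, Brg1 cKO replicate 2 was the highest, and all other values lay below 4.84. The difference was 0.998 (SE 0.33, 95% interval 0.23 to 1.77, limma adjusted p = 0.439), or 1.998-fold. It was 0.62 without Brg1 cKO replicate 2, and 0.49 with an offset of 16 added to the intensities before log2, which damps differences between dim values.

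Traf1 and Birc3 encode proteins of the TNF receptor complex, an adaptor and an inhibitor-of-apoptosis ubiquitin ligase, and both are induced by NF-kappaB. Birc3 had the smallest p of the 9 genes. It read 6.84, 6.37 and 6.89 in the wild-type arrays, against 7.38, 8.50 and 7.97 in the Brg1 cKO arrays, so that the lowest Brg1 cKO array lay above the highest wild-type array. The mean was 6.70 ± 0.29 in wild type and 7.95 ± 0.56 in Brg1 cKO (log2, SD, n = 3). The difference was 1.25 (SE 0.31, 95% interval 0.52 to 1.97, limma adjusted p = 0.236), and it was positive in all 14 alternative fits, from 0.97 to 1.53. A dimmer Birc3 probe set read 3.35 and 4.12 on average, a difference of 0.76 with an interval from 0.01 to 1.52. Traf1 read 4.32, 4.96 and 4.79 in the wild-type arrays, against 5.14, 5.56 and 5.07 in the Brg1 cKO arrays. The gap between its groups was small, and the difference was 0.57 (SE 0.24, 95% interval 0.01 to 1.12, adjusted p = 0.587). With the offset of 16 it was 0.37.

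Relb and Nfkb2 encode the Rel proteins of the noncanonical branch. Relb read 5.53, 4.86 and 5.61 in the wild-type arrays, against 6.02, 6.70 and 6.15 in the Brg1 cKO arrays. Wild-type replicate 2 was the lowest array, and the groups did not overlap. The difference was 0.96 (SE 0.28, 95% interval 0.31 to 1.61, limma adjusted p = 0.341), or 1.94-fold, and it lay between 0.72 and 1.10 in all 14 alternative fits. Nfkb2 had 2 probe sets that disagreed. The brighter one, a set of the x type, which holds probes that can also match other sequences, read 7.75, 7.65 and 8.06 in the wild-type arrays, against 8.05, 7.54 and 7.56 in the Brg1 cKO arrays. Its groups overlapped, and it differed by -0.10 (SE 0.22, 95% interval -0.61 to 0.40, adjusted p = 0.934). The dimmer one read 5.69, 5.87 and 5.95 in the wild-type arrays, against 6.25, 7.08 and 6.24 in the Brg1 cKO arrays, without overlap. It differed by 0.69 (SE 0.26, 95% interval 0.08 to 1.30, adjusted p = 0.526), so that the direction for Nfkb2 rests on the probe set chosen, and the mean of both sets differed by 0.29.

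Nfkbia, Nfkbiz and Tnfaip3 encode regulators that NF-kappaB itself induces. Nfkbiz encodes an atypical nuclear IkappaB protein, needed for a subset of secondary response genes. It read 6.91, 6.59 and 6.89 in the wild-type arrays, against 7.10, 8.89 and 7.66 in the Brg1 cKO arrays. Brg1 cKO replicate 1 lay just above the wild-type arrays and replicate 2 far above them. The difference was 1.09 (SE 0.43, 95% interval 0.09 to 2.09, limma adjusted p = 0.55), and it was 0.59 without Brg1 cKO replicate 2. The dimmer Nfkbiz probe set also had groups that did not overlap and differed by 1.31 (SE 0.36, 95% interval 0.47 to 2.14, adjusted p = 0.291).

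Nfkbia encodes the IkappaB alpha inhibitor, the classical feedback gene of the pathway. It read 12.24, 11.89 and 12.04 in the wild-type arrays, against 12.22, 12.72 and 12.44 in the Brg1 cKO arrays, and the groups overlapped by the lowest Brg1 cKO and the highest wild-type array. The difference was 0.40 (SE 0.20, 95% interval -0.07 to 0.87, limma adjusted p = 0.676), or 1.32-fold. The other 3 Nfkbia probe sets differed by 0.37, 0.50 and 0.41, all with groups that overlapped. Tnfaip3 encodes a ubiquitin-editing enzyme that ends TNF signaling. Its probe set read 2.64 to 2.94 in wild-type and 2.50 to 3.12 in Brg1 cKO arrays, below 4.84 in all 6. The difference was -0.06 (SE 0.22, 95% interval -0.58 to 0.45, adjusted p = 0.962) at values where differences are understated.

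Icam1 encodes an adhesion molecule that endothelium and epithelium display to leukocytes after TNF. It read 7.57, 7.09 and 7.84 in the wild-type arrays, against 7.91, 9.28 and 8.52 in the Brg1 cKO arrays. Brg1 cKO replicate 1 lay close to wild-type replicate 3, and the groups did not overlap. The mean was 7.50 ± 0.38 in wild type and 8.57 ± 0.68 in Brg1 cKO (log2, SD, n = 3). The difference was 1.07 (SE 0.37, 95% interval 0.21 to 1.93, limma adjusted p = 0.469), or 2.10-fold. Exact two-sided permutation tests gave p = 0.1 for each of the 6 genes without overlap, the smallest value that 3 arrays against 3 allow, and p = 0.2 for Nfkbia, 0.5 for Nfkb2 and 0.8 for Tnfaip3.

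**Figure D2:**
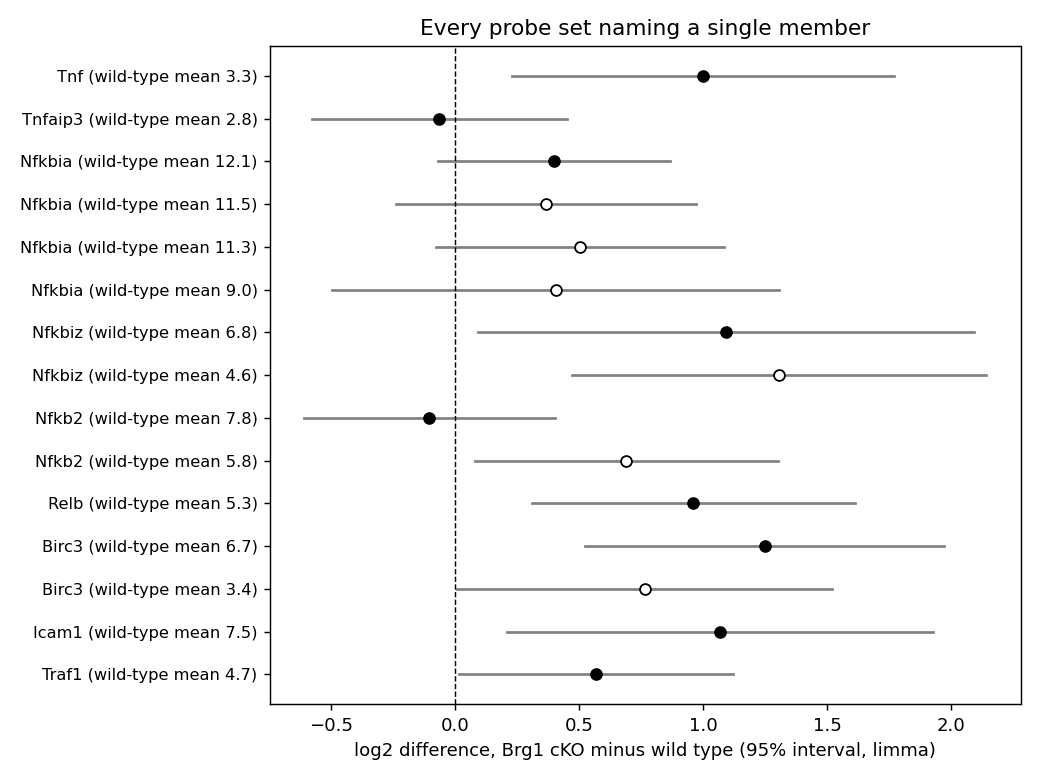
Log2 difference of Brg1 cKO minus wild type (horizontal axis) with its 95% interval from limma for each of the 15 probe sets that name a single member, filled for the brightest of a gene and open for the others, with the wild-type mean in log2 beside each gene. The 4 Nfkbia probe sets lie between 0.37 and 0.50, while those of Nfkb2 lie on opposite sides of 0, at -0.10 and 0.69.

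Across the arrays, the members did not move to the same extent. The median difference from the wild-type mean over the 9 genes was 0.41, 1.37 and 0.62 for the Brg1 cKO arrays in order of number, against 0.07, -0.17 and 0.16 for the wild-type arrays. Brg1 cKO replicate 2 was the highest array for 7 of the 9 genes, all but Tnfaip3 and Nfkb2, and wild-type replicate 2 the lowest for 5.

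The summed macrophage, neutrophil, endothelium and muscle markers were also highest in Brg1 cKO replicate 2, whose retina markers were the lowest of all arrays. Its lens and corneal markers, at 53020 and 8527, were the highest of the Brg1 cKO arrays, though below the wild-type arrays. Of 10 macrophage and monocyte markers, 0 passed the test, all 10 differences were positive and 6 had an unadjusted p under 0.05, where 52.9% of all genes were positive and 5.56% were higher at that level. Their summed intensity was 1747 to 2323 in the wild-type arrays, against 2706, 5513 and 3158 in the Brg1 cKO arrays. Ptprc (log2 difference 2.42), Cd68 (1.06), Csf1r (0.68), Aif1 (1.17) and Lyz2 (1.13) were higher without overlap, where 8.46% of all genes were. Groups overlapped in Itgam (0.11), Adgre1 (0.57), Fcgr3 (1.04), C1qa (0.42) and Cx3cr1 (0.07). Cx3cr1 was lowest of all arrays in Brg1 cKO replicate 2, at 4.94. Single macrophage genes were named after their values were seen. Of 11 neutrophil markers, S100a8 and S100a9, calcium-binding proteins that stressed epithelium also makes, rose by 4.99 (limma adjusted p = 0.0181) and 4.55 (adjusted p = 0.00935). The neutrophil sum was 498.5 to 974.2 in the wild-type arrays, against 7075, 22900 and 7855 in the Brg1 cKO arrays. S100a8 and S100a9 made up 6823, 21700 and 7534 of the Brg1 cKO sums. The other 9 neutrophil markers summed to 499.2, 208.3 and 401.1 in the wild-type and 252, 1208 and 321.3 in the Brg1 cKO arrays, so that the groups overlapped, and Ltf, Elane and Mpo had lower means in Brg1 cKO, with differences of -0.51, -0.07 and -0.09. Of these 9, Csf3r was the 1 gene higher without overlap, where 8.46% of all genes were higher without overlap. These genes and the split were chosen after the values were seen. Elane and Mpo, a granule protease and a peroxidase that mark immature neutrophils, lay between 2.29 and 2.95 in all 6 arrays, among the dimmest values. Of 7 lymphocyte markers, 0 passed, and their sum was 147.3 to 156.8 in wild-type and 148.5 to 185.6 in Brg1 cKO arrays. Of 8 vascular endothelium markers, which bear on Icam1, 0 passed, and their sum was 2646 to 3856 in the wild-type arrays, against 2640, 4256 and 3801 in the Brg1 cKO arrays. Of 8 skeletal muscle markers 0 passed, and their sum was 21550 to 35610 in the wild-type arrays, against 17530, 40620 and 33370 in the Brg1 cKO arrays. The actin controls, whose 3' signal exceeds the 5' signal more in degraded RNA, differed by 0.93 to 1.12 (log2) in wild-type eyes and by 1.28, 1.34 and 0.98 in the Brg1 cKO eyes. The part of these cells and of RNA quality in the differences of the 9 genes was not tested.

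**Figure D3:**
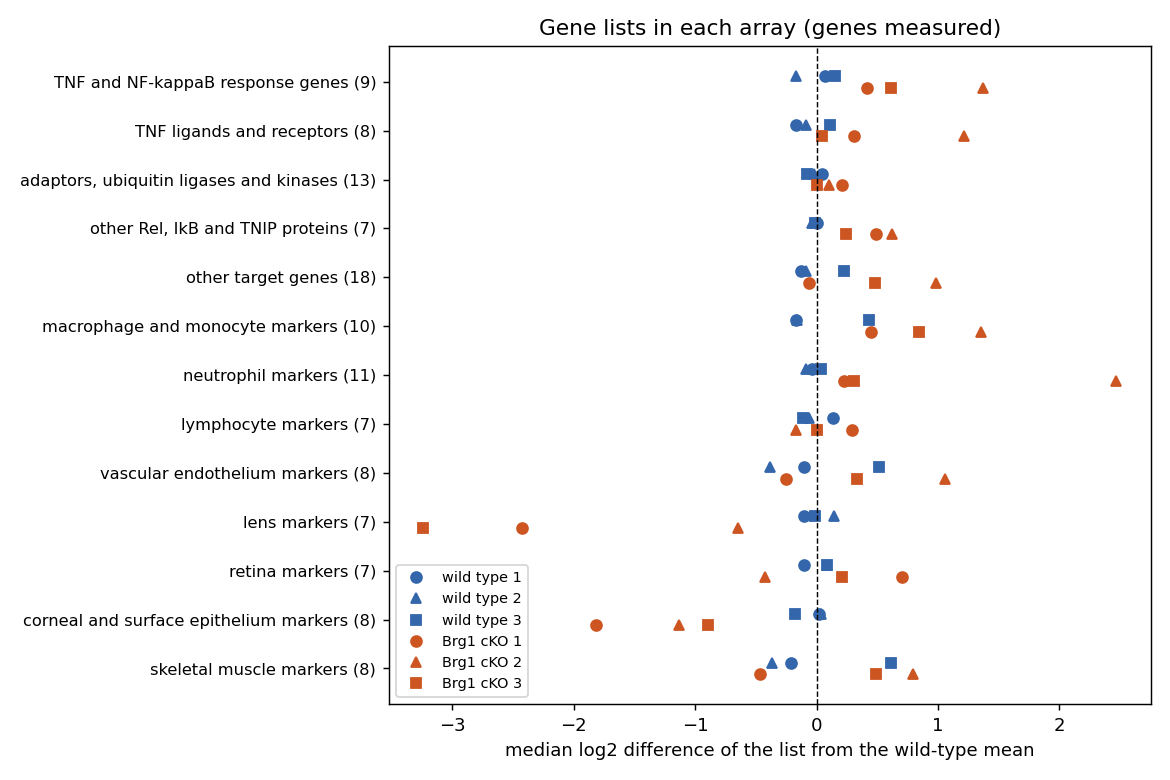
Median log2 difference from the wild-type mean (horizontal axis) of each gene list in each array, blue for wild type and orange for Brg1 cKO, with circles, triangles and squares for replicates 1, 2 and 3 and the number of genes measured in brackets. For TNF and NF-kappaB response genes the Brg1 cKO arrays lie at 0.41, 1.37 and 0.62, with replicate 2 farthest to the right. The same array lies farthest to the right for macrophage, neutrophil, endothelium and muscle markers. It does so too for TNF ligands and receptors, other Rel, IkappaB and TNIP proteins and other target genes.

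Other genes of the pathway were counted in 4 lists, of which 46 of 52 genes were measured and 0 passed the limma test over all probe sets. These lists were also chosen with earlier results of these data known, so that their counts are descriptions. At an unadjusted p under 0.05, 13 of the 46 genes had a higher and 0 a lower mean in Brg1 cKO. Beside these, 5.56% of all genes were higher and 464 of all 12393 genes lower at that level. Without Brg1 cKO replicate 1, 5 of the 46 passed, all with higher means, where 0.694% of all genes passed with a higher mean in the same fit. These were Tnfrsf1b (log2 difference 2.19, limma adjusted p = 0.00926), Cxcl1 (3.51, adjusted p = 0.0101), Il6 (3.35, adjusted p = 0.00229), Ccl2 (2.47, adjusted p = 0.0337) and Tnfaip2 (2.68, adjusted p = 0.0405). With all 6 arrays their adjusted p-values were 0.197, 0.0792, 0.158, 0.242 and 0.195. With any other single array left out, 0 of the 46 passed, so that the count of 5 rests on leaving out Brg1 cKO replicate 1. That array was also the one with low Xist, and whether this bears on the count was not tested. Ccl2 and Tnfaip2, as well as Vcam1, Sele, Rela and Rel below, were named after their values were seen, and the Tnfaip2 probe set is of the x type.

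Among 8 ligands and receptors of the TNF family, 3 were higher at an unadjusted p under 0.05, beside 5.56% of all genes. Their median difference was 0.55, beside 0.02 over all genes. Tnfrsf1b, the TNF receptor found mainly on leukocytes and endothelium, read 5.64, 5.44 and 5.53 in the wild-type arrays, against 6.27, 7.64 and 7.82 in the Brg1 cKO arrays. Its groups did not overlap, and it differed by 1.71 (SE 0.40), or by 1.01 as the mean of its probe sets. Tnfsf11, the ligand of the osteoclast receptor RANK, read 2.65, 3.33 and 4.59 in the wild-type arrays, against 5.08, 4.73 and 5.37 in the Brg1 cKO arrays, with wild-type values below 4.84. It differed by 1.54 (SE 0.47, limma adjusted p = 0.382), by 0.80 with the offset of 16 and by 0.85 as the mean of its probe sets.

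Among 13 measured adaptors, ubiquitin ligases and kinases, which carry the signal from the receptor to IkappaB, 0 had an unadjusted p under 0.05, and the median difference was 0.14. The genes with the smallest p were Birc2, a ubiquitin ligase related to Birc3, with a difference of 0.38 (SE 0.19, limma adjusted p = 0.681), and Traf6, the adaptor of interleukin 1 and Toll-like receptors, with -0.37 (SE 0.20, adjusted p = 0.713). Both had groups that overlapped. Ripk1, Traf3, Rnf31, Cyld and Chuk of this list were not analysed here.

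Among 7 measured further Rel, IkappaB and TNIP proteins, 3 were higher at an unadjusted p under 0.05, beside 5.56% of all genes. The median difference was 0.33. Bcl3, a nuclear IkappaB protein, read 5.23, 5.05 and 5.85 in the wild-type arrays, against 6.85, 7.43 and 6.31 in the Brg1 cKO arrays. Nfkbie, the IkappaB epsilon inhibitor, read 6.27, 5.89 and 5.69 in the wild-type arrays, against 6.93, 7.78 and 6.96 in the Brg1 cKO arrays. Neither overlapped, and the differences were 1.49 (SE 0.33) and 1.27 (SE 0.29), both with a limma adjusted p of 0.183. Rela and Rel, the activating Rel proteins of the canonical branch, differed by 0.30 (SE 0.21) and 0.32 (SE 0.16), and Rel lay below 4.84 in all arrays. Nfkbid of this list was not analysed here.

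Among 18 further target genes, 7 were higher at an unadjusted p under 0.05, beside 5.56% of all genes, and the median difference was 0.42. Cxcl1, a chemokine for neutrophils, read 3.97, 3.35 and 4.28 in the wild-type arrays, against 5.60, 7.50 and 7.25 in the Brg1 cKO arrays, a difference of 2.92 (SE 0.51). Il6, a cytokine, read 2.41, 2.38 and 2.21 in the wild-type arrays, against 3.50, 5.66 and 5.71 in the Brg1 cKO arrays, a difference of 2.63 (SE 0.56), or of 1.25 with the offset of 16. In both genes the wild-type arrays lay below 4.84, and Brg1 cKO replicate 1 was the lowest Brg1 cKO array. Vcam1, an adhesion molecule induced together with Icam1, differed by 0.45 (SE 0.37, limma adjusted p = 0.815), and Sele, the endothelial selectin, by 0.47 with all its values below 4.84.

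**Figure D4:**
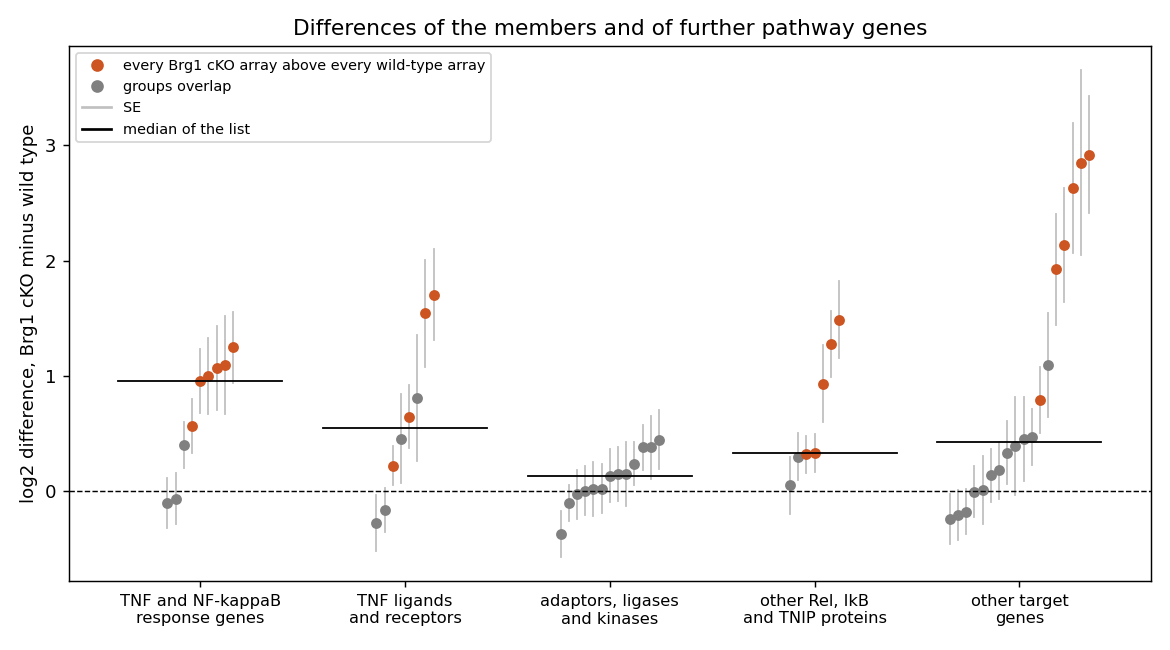
Log2 difference of Brg1 cKO minus wild type (vertical axis) with its SE for the 9 measured members and the 46 measured genes of the 4 further pathway lists, 1 point per gene, orange where every Brg1 cKO array lay above every wild-type array, with a line at the median of each list. The medians lie at 0.96 for the members, 0.55 for ligands and receptors, 0.14 for adaptors, ligases and kinases, 0.33 for further Rel, IkappaB and TNIP proteins and 0.42 for further targets.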

How the data were processed

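RNA of 6 whole eyeballs, 3 Brg1 cKO and 3 wild type, was measured on Affymetrix mouse genome arrays after amplification of 50 ng total RNA per sample. The authors deposited linear intensities from RMA (background adjustment, normalization between arrays and a summary per probe set). The RMA version was not given in the sources used here. RMA compresses differences near background. No detection calls were used. After 64 control rows were left out, 22626 probe sets were converted to log2 and tested with limma 3.58.1 in R 4.3.3 (genotype as the only term, empirical Bayes, two-sided, Benjamini-Hochberg adjustment over all probe sets, threshold 0.05). Platform annotation gave 1 gene to 20380 probe sets, several to 691 and none to 1555. Genes named by rule are the members, Smarca4, the genes of each further pathway list past the threshold and its 2 genes with the smallest p. Ccl2, Tnfaip2, Vcam1, Sele, Rela and Rel fall outside this rule and were named after their values were seen. Members and lists were chosen with earlier results of these data known. The fit was checked on simulated data. Alternatives were a replicate block, leaving out each array, quantile normalization, median centring, a filter on dim probe sets, trend with a robust prior, 1 probe set per gene, an offset, template matching and the mean of probe sets.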

Additional observations from a re-analysis of the deposited data

How the results depend on the processing

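Under limma, 0 of the 9 genes passed the adjusted threshold in the 14 alternative fits (the filter on dim probe sets left out Tnf and Tnfaip3), and template matching called 2. The count of genes higher at an unadjusted p under 0.05, 6, lay between 3 and 6 with single arrays left out and was 3 with the offset of 16 and 2 with template matching. The median of the 9 differences, 0.96, was 0.49 with the offset and reached from 0.59 to 1.09 with single arrays left out. Tnfaip3 changed sign without wild-type replicate 3 and without Brg1 cKO replicates 2 and 3, with a range of -0.26 to 0.0487. Nfkb2 ranged from -0.27 to 0.0167 with single arrays left out, the sign changing without wild-type replicate 3, and was 0.29 as the mean of its probe sets. For the other 7 genes the difference was positive in each alternative fit. Of the 46 further pathway genes, 0 to 5 passed with single arrays left out and 1 (Cxcl1) with trend and a robust prior. Template matching called 7 of them higher, where it called 2.53% of all genes higher. Same-numbered samples of the groups had correlated deviations of 0.06, 0.08 and 0.13, which does not show pairing, and with the replicate number as a block 0 of the 9 genes passed and 6 had an unadjusted p under 0.05. Over all probe sets, 115 passed, 24 to 216 with single arrays left out, 45 with the replicate block, 32 with the offset and 820 with template matching. The causes of these changes were not tested. Dim signal limits Tnf, Tnfaip3 and Traf1 most.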
